A study of Mus musculus with 10 samples.

Results

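The genes described here are 38 genes of the ATF4 pathway and the unfolded protein response, picked by symbol out of 55189 named genes in one deposited expression table and 32931 in the other. They comprise 10 regulators and effectors around Atf4, 9 enzymes of amino acid and one-carbon metabolism, 5 amino acid transporters, the transcription factors Xbp1 and Atf6, and 12 chaperones and degradation factors of the endoplasmic reticulum (ER). RNA abundance was measured in OP9, a mouse stromal cell line that the labels class as a mesenchymal stem cell. Every library came from cells kept in 1 µM rosiglitazone, an agonist of the adipogenic nuclear receptor PPARγ, and taken at day 10 of adipogenic differentiation. In batch 2, 3 Drosha knockout libraries were set against 3 empty vector libraries, the controls of that batch. In batch 1, 2 Dicer1 knockout libraries were set against 2 with an empty vector. Drosha and Dicer1 encode the enzymes of the first and the second cleavage of microRNA maturation. The labels do not say how the knockouts were made, how many clones they represent or whether replicates were separate cultures, so the spread behind each p-value is that of these libraries and may be technical only.

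ATF4 is a transcription factor whose translation rises when the initiation factor eIF2 is phosphorylated by kinases that sense amino acid shortage, heme shortage, double-stranded RNA or misfolded protein in the ER. It pairs with C/EBP-family proteins on a composite element and is known to induce genes for amino acid synthesis, amino acid import and feedback control of the stress response. Misfolded protein in the ER also activates ATF6, by cleavage, and XBP1, by splicing of its mRNA, and both are known to induce chaperones through the ER stress response element. RNA levels report neither phosphorylation, cleavage nor splicing, and gene-level values do not separate the spliced from the unspliced Xbp1 RNA.

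The promoters of the members carried the letters of these elements unevenly. RefSeq promoter windows, running from 250 bases before to 50 bases after the annotated start (build GRCm38.p6), were found for 33 of the 38 genes, in 36 windows because Slc7a1, Psat1 and Vldlr had 2 each. The ER stress response element, searched on both strands as CCAAT, any 9 bases and CCACG, stood in 6 of the 36 windows, those of 6 of the 11 ER chaperone genes found. It was present in 0.119% of 32851 mouse promoter windows and in at least 1 window of 0.137% of 27025 genes. The C/EBP-ATF response element, searched on both strands as TGATGNAA, stood in 8 of the 36 windows, each of a different gene (Asns, Chac1, Herpud1, Nupr1, Pck2, Slc7a11, Trib3 and Vldlr), in 3.97% of all windows and in at least 1 window of 4.51% of all genes. Counted by gene, it occurred in 3 of 11 amino acid enzymes and transporters, 4 of 10 regulators (for Vldlr in 1 of its windows) and 1 of 11 ER chaperones. The letters TGACGTGG of the unfolded protein response element were in 0 of the 36 windows and in 0.676% of all windows. A match is a description of letters and not of a bound site.

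The stretches that follow show the element of each class in some of the genes whose values recur in the results, read 5′ to 3′ along the gene, with the matched letters in capitals. The first 4 carry the C/EBP-ATF response element, in its forward or reverse orientation, and the last 4 both parts of the ER stress response element. They lie at chr6:7693210-7693247 on the minus strand (Asns), chr3:50443638-50443694 on the minus strand (Slc7a11), chr2:119351034-119351071 on the plus strand (Chac1), chr8:94386302-94386339 on the plus strand (Herpud1), chr2:34772010-34772058 on the plus strand (Hspa5), chr14:118937812-118937860 on the plus strand (Dnajc3), chr15:88819505-88819553 on the plus strand (Creld2) and chr12:17266476-17266524 on the plus strand (Pdia6).
Asns: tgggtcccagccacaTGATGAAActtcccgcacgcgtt
Slc7a11: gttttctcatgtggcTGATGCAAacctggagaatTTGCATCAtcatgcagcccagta
Chac1: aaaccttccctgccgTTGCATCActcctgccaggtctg
Herpud1: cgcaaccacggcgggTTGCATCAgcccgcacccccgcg
Hspa5: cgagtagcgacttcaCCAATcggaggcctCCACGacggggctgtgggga
Dnajc3: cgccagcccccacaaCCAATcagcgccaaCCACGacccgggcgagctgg
Creld2: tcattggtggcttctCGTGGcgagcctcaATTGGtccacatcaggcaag
Pdia6: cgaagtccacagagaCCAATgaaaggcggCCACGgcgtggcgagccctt
Slc7a11 held 2 copies of its element, in opposite orientations, where Asns, Chac1 and Herpud1 held 1 each. The element of Hspa5 began 65 bases before its start, that of Dnajc3 105 bases before, that of Creld2 126 bases before and that of Pdia6 98 bases before. The C/EBP-ATF matches of Nupr1, Pck2, Vldlr and Trib3, the last beginning 14 bases after its annotated start, are not shown. Nupr1, Pck2 and Vldlr rose in neither knockout by limma.

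**Figure D1:**
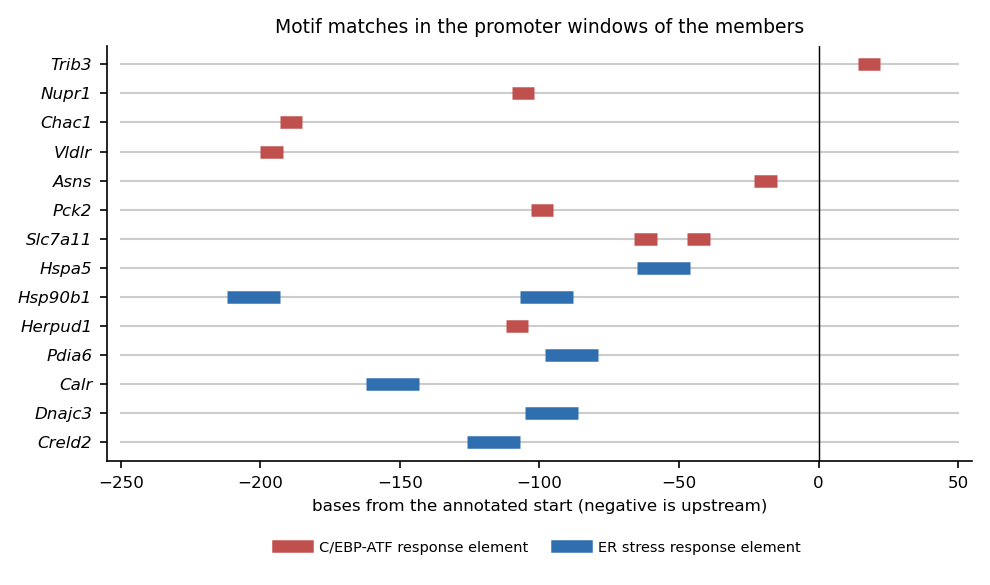
Matches of the C/EBP-ATF response element (red) and the ER stress response element (blue) in the promoter windows of the members that hold either, by distance in bases from the annotated start. Each of the 6 genes with a blue mark is an ER chaperone or folding factor, and Herpud1 is the ER gene with a red mark.

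Values are TPM, transcript abundances corrected for length and scaled to the same total in each library, so read depth is unknown and no counting interval is given. Controls of batch 2 held 38.9, 39.6 and 38.6 TPM of Drosha RNA, and the Drosha knockout held 14.8, 13.7 and 15.6 TPM. Dicer1 RNA was higher in that knockout, at 18.8, 16.5 and 19.6 TPM against 9.52, 8.49 and 9.21 TPM in its controls (0.94 ± 0.08, adjusted p = 1.32e-04). In batch 1 it was 23.8 and 17.3 TPM in the controls and 19.3 and 14.9 TPM in the Dicer1 knockout (log2 change -0.25 ± 0.21, adjusted p = 0.407), so it does not check that label. The 2 empty vector libraries of batch 1 stood further apart than any other replicates, with a median absolute gene difference of 0.218 on the log2 scale against 0.0787 to 0.118 elsewhere. Summed TPM of 6 adipocyte markers was 1371 to 1390 in the batch 2 empty vector and 1440 to 1472 in the Drosha knockout, and 828 to 965 in the batch 1 empty vector and 289 to 319 in the Dicer1 knockout. Summed TPM of 6 cell cycle genes was 62.2 to 70.0 and then 159.9 to 175 in the Drosha comparison, and 222 to 428 and then 88.2 to 90.8 in the Dicer1 comparison. By limma, 1 of the adipocyte markers rose and 4 fell in the Drosha knockout and 5 fell in the Dicer1 knockout, where Adipoq went from 61.6 and 36.4 TPM to 0.148 and 0.164 TPM, and all 6 cell cycle genes rose in the former and fell in the latter. Summed TPM of 5 stromal markers was 7073 to 7583 in the batch 2 controls and 7109 to 7247 in the Drosha knockout, where Col1a1 fell (-0.37 ± 0.06). In batch 1 the sum was 1086 to 1233 and then 659 to 677 in the Dicer1 knockout. There 3 of 4 tested fell, Pdgfrb by -2.13 ± 0.23, Cxcl12 by -1.12 ± 0.25 and Col1a1 by -0.70 ± 0.08. Thy1 was at or below 1.00 TPM in all 10 libraries. Summed TPM of 5 macrophage markers was 1.26 to 2.81 in the batch 2 controls, 1.34 to 2.52 in the Drosha knockout. It was 11.9 to 20.2 in the batch 1 controls and 15 to 17.8 in the Dicer1 knockout. Most of the batch 1 sums was Cd68, at 11.8 to 19.6 TPM, and Tyrobp was at 0 throughout. Whether these shifts had a part in the values that follow was not tested.

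Many members rose in each knockout, 15 of them in both. The share of all genes that rose in both was not counted, so this and later counts of shared rises stand without a background. Where the difference between the 2 changes was called, for 11 members, the rise was larger in the Dicer1 knockout. The knocked-out gene and the batch cannot be told apart in it. Among the 15 these were Atf4, Slc3a2, Chac1, Asns and Phgdh, and the calls of Chac1, Asns and Phgdh were lost in some alternatives. In the Drosha knockout 21 of 37 tested members rose and 2 fell, where 35.3% of all 12739 genes rose and 7.42% fell, at a Benjamini-Hochberg adjusted p under 0.05 from limma. Their median log2 change was 0.24, against 0.13 over all genes tested. In the Dicer1 knockout 22 of 38 members rose and 0 fell (limma, with 0 lower at an unadjusted p under 0.05), where 21.5% of all 12239 genes rose and 9.6% fell, and the median was 0.60 against 0.15 over all genes. With a scaling that puts the median of all genes near 0 (median-ratio scaling), 16 members rose and 3 fell in the Drosha knockout and 17 rose and 0 fell in the Dicer1 knockout. Calls over all genes went from 4502 higher and 945 lower to 2309 and 2077 for Drosha, and from 2627 and 1175 to 1471 and 1710 for Dicer1. That scaling ended the calls of Cebpg, Chac1, Ppp1r15a, Phgdh and Sdf2l1 in the Drosha knockout, and of Hspa5, Hsp90b1, Dnajb9, Edem1 and Creld2 in the Dicer1 knockout. Of the 15 members that rose in both, it left Atf4, Sesn2, Asns, Mthfd2, Slc3a2, Slc7a1 and Dnajc3 called in both. With Dicer1 knockout replicate 1 or 2 left out, limma called 0 of 12239 genes, where 2925 and 3129 had an unadjusted p under 0.05, 19 members among them each time. In bulk RNA, fewer cells of a type and less RNA per cell cannot be told apart.

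**Figure D2:**
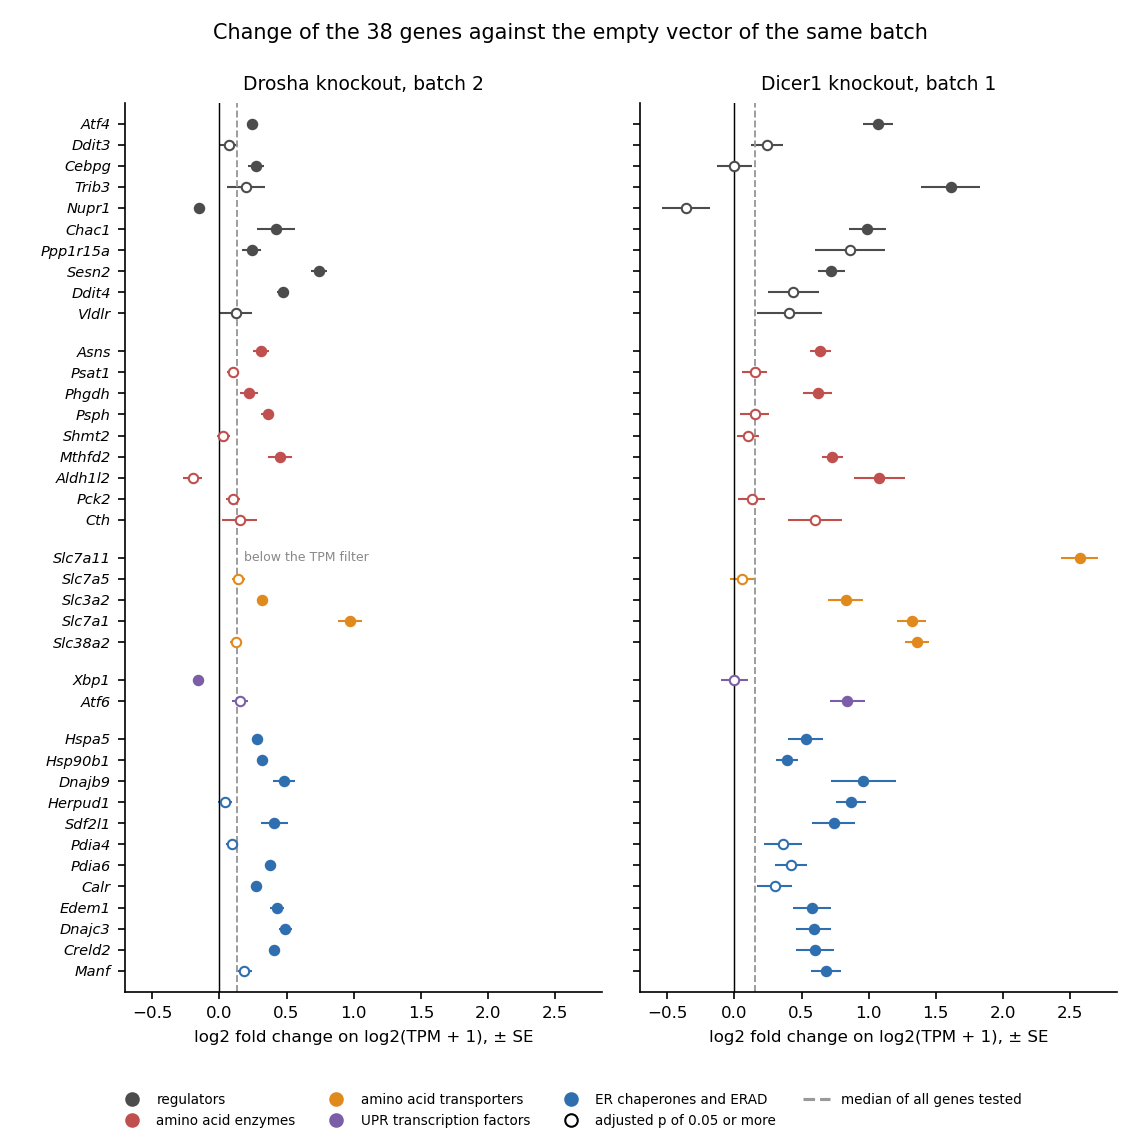
Log2 fold change with its standard error for each of the 38 genes in the Drosha knockout (3 against 3 libraries) and the Dicer1 knockout (2 against 2), coloured by role, with filled points at an adjusted p under 0.05 and a dashed line at the median of all genes tested. Blue ER chaperone points lie close together in both panels, from 0.04 to 0.49 and from 0.30 to 0.96, while the amino acid enzymes and transporters reach from 0.06 to 2.57 in the Dicer1 knockout.

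Among the regulators, Atf4 itself rose in both knockouts. Its level was 166, 164 and 163 TPM in the batch 2 controls and 191, 199 and 194 TPM in the Drosha knockout, a log2 fold change of 0.24 ± 0.03 (SE, n = 3 and 3, adjusted p = 6.19e-04). It was 0.10 after median-ratio scaling (adjusted p = 0.0443) and 0.13 after quantile normalisation (adjusted p = 0.0119). In batch 1 it was 345 and 407 TPM in the controls and 815 and 763 TPM in the Dicer1 knockout, a log2 fold change of 1.07 ± 0.11 (SE, n = 2 and 2, adjusted p = 0.00539). The groups did not overlap in either batch. Sesn2, an inhibitor of the growth kinase complex mTORC1 that senses leucine, went from 15.2, 14 and 13.5 TPM to 23.6, 24.2 and 25.5 TPM with Drosha knockout and from 30.1 and 32.0 TPM to 53.1 and 50.7 TPM with Dicer1 knockout. Its log2 fold changes, 0.74 ± 0.06 (adjusted p = 1.06e-04) and 0.72 ± 0.10 (adjusted p = 0.00936), had errors wider than the gap between them. Ddit4, another mTORC1 inhibitor, rose in the Drosha knockout, from 54.3, 50.4 and 52.0 TPM to 74.6, 72.6 and 70.7 TPM (0.47 ± 0.04, adjusted p = 1.64e-04). In batch 1 the empty vector libraries held 48.7 and 71.4 TPM of Ddit4 and the Dicer1 knockout libraries 85.3 and 75.3 TPM, a difference that missed the threshold (0.44 ± 0.19, adjusted p = 0.143) and passed it without empty vector replicate 2 (0.71, adjusted p = 0.0245).

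Trib3, a pseudokinase that binds ATF4 and restrains it, gave the largest change of a regulator in the Dicer1 knockout. It went from 44.5 and 69.0 TPM to 187 and 157 TPM (1.61 ± 0.22, adjusted p = 0.00857), with every knockout library above both controls. In batch 2 it stood at 3.10, 2.79 and 3.56 TPM in the controls and 4.25, 2.96 and 4.13 TPM in the Drosha knockout, where the groups overlapped (0.20 ± 0.14, adjusted p = 0.301). Chac1, an enzyme that breaks down glutathione, rose from 17.4 and 19.8 TPM to 41.1 and 34.9 TPM in the Dicer1 knockout (0.99 ± 0.14, adjusted p = 0.00936). In the Drosha knockout it was low, at 1.89, 2.11 and 1.60 TPM before and 2.54, 3.34 and 2.63 TPM after (0.42 ± 0.14, adjusted p = 0.0417), and its call was lost with any 1 of the 6 libraries left out (adjusted p between 0.0557 and 0.121).

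Of the remaining 5 regulators, Ppp1r15a and Cebpg rose and Nupr1 fell in the Drosha knockout, and none passed in the Dicer1 knockout. Ddit3, which encodes the pro-apoptotic factor CHOP, stood at 68.7, 78.9 and 66.8 TPM in the batch 2 controls and 74.2, 79.0 and 71.4 TPM in the Drosha knockout, with overlapping groups (0.07 ± 0.07, adjusted p = 0.456). In batch 1 it was 196 and 236 TPM in the controls and 269.8 and 238 TPM in the Dicer1 knockout (0.24 ± 0.12, adjusted p = 0.189). Ppp1r15a, a phosphatase subunit that reverses eIF2 phosphorylation, rose in the Drosha knockout (0.24 ± 0.07, adjusted p = 0.0328), a call lost with any library but empty vector replicate 1 left out (adjusted p up to 0.0841). Its empty vector libraries in batch 1 differed widely, at 75.9 and 134 TPM, against 197 and 173 TPM in the Dicer1 knockout, and 0.86 ± 0.26 had an adjusted p of 0.0586, which passed without empty vector replicate 1 (0.46, adjusted p = 0.0473) or replicate 2 (1.27, adjusted p = 0.0128). Cebpg, a partner of ATF4 on its element, rose in the Drosha knockout (0.27 ± 0.06, adjusted p = 0.0085), though not after median-ratio scaling (0.13, adjusted p = 0.152), and was at 0.00 ± 0.13 in the Dicer1 knockout. Nupr1, a small chromatin-associated stress protein, fell in the Drosha knockout from 291, 289 and 285 TPM to 257, 264 and 259 TPM (-0.15 ± 0.03, adjusted p = 0.00368). With Dicer1 knockout it was lower by a log2 change of -0.36 ± 0.18 (adjusted p = 0.173), and by -0.62 without empty vector replicate 1 (adjusted p = 0.0221). Vldlr, a lipoprotein receptor, passed in neither (0.12 ± 0.12 and 0.41 ± 0.24).

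**Figure D3:**
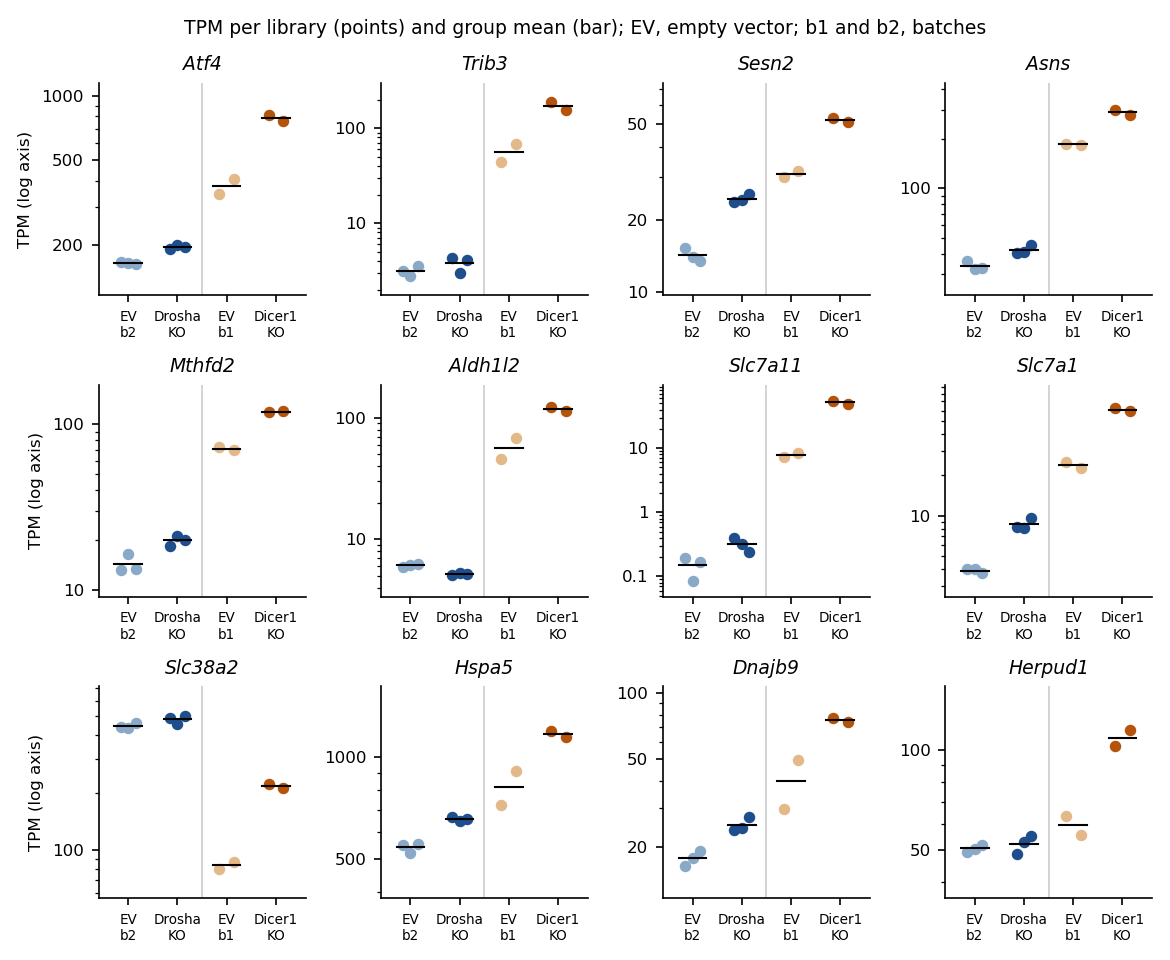
TPM of 12 of the genes in each library (points) with the group mean (bar), on a log axis per gene, for the empty vector (EV) and knockout (KO) of batch 2 on the left of each panel and batch 1 on the right. Slc7a11 is at most 0.403 TPM in the batch 2 libraries and at least 7.39 TPM in those of batch 1, and Slc38a2 is the gene shown whose batch 2 levels exceed those of batch 1, in tables that were normalised separately.

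Of the 9 amino acid and one-carbon enzymes, 4 rose in each knockout and 3 of these (Asns, Phgdh and Mthfd2) were shared. Of all genes, 35.3% rose in the Drosha and 21.5% in the Dicer1 comparison. With median-ratio scaling 3 rose and 1 fell in the former and 4 rose in the latter. Asns, which makes asparagine, went from 36.0, 32.5 and 33.0 TPM to 40.5, 41.1 and 45.4 TPM in the Drosha knockout (0.31 ± 0.06, adjusted p = 0.00505). It went from 186 and 184 TPM to 300 and 278 TPM in the Dicer1 knockout (0.64 ± 0.08, adjusted p = 0.00796). Neither pair of groups overlapped. Mthfd2, a mitochondrial folate enzyme, stood at 13.2, 16.5 and 13.4 TPM and then 18.4, 21.2 and 20.0 TPM in batch 2 (0.45 ± 0.09, adjusted p = 0.00733). In batch 1 it stood at 72.4 and 69.5 TPM and then 118 and 119 TPM (0.73 ± 0.08, adjusted p = 0.00625). Its knockout libraries were above the controls in both batches. With quantile normalisation the Drosha calls of Asns (0.13, adjusted p = 0.0966) and Mthfd2 (0.27, adjusted p = 0.0658) were lost.

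Of the 3 enzymes of serine synthesis, each catalysing one step from the glycolytic intermediate 3-phosphoglycerate, the patterns differed. Phgdh, the first step, rose from 75.8 and 64.7 TPM to 109 and 107 TPM in the Dicer1 knockout (0.62 ± 0.11, adjusted p = 0.014). With Drosha knockout its 31.1, 33.3 and 36.1 TPM lay above the 30.3, 26.6 and 28.7 TPM of the controls (0.22 ± 0.07, adjusted p = 0.0353), a call lost without knockout replicate 2 or 3 or empty vector replicate 2 or 3 (adjusted p between 0.0765 and 0.106). Psph, the last step, rose in the Drosha knockout from 10.3, 10.7 and 10.2 TPM to 13.5, 13.7 and 13.6 TPM (0.36 ± 0.05, adjusted p = 0.00148). Its 33.0 and 34.7 TPM in the Dicer1 knockout stood just above the 29.6 and 31.0 TPM of the controls, without passing the threshold (0.15 ± 0.11, adjusted p = 0.322). Psat1, the middle step, passed in neither (0.10 ± 0.04 and 0.15 ± 0.09).

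Aldh1l2, a mitochondrial enzyme that oxidises formyl-folate, was the enzyme with the largest rise in the Dicer1 knockout, from 45.6 and 67.5 TPM to 123 and 114 TPM (1.08 ± 0.19, adjusted p = 0.0147). With no filter on low TPM Aldh1l2 missed the threshold there (adjusted p = 0.0602). In batch 2 it stood at 5.97, 6.12 and 6.31 TPM in the controls and 5.15, 5.30 and 5.17 TPM in the Drosha knockout. The Drosha knockout libraries were the lower ones without overlap, at an adjusted p of 0.0545 (-0.20 ± 0.07) that passed after median-ratio scaling (-0.32, adjusted p = 0.0113). Of its 7503 annotated exon bases, 1056 overlap D10Wsu102e on the opposite strand, and 452 bases of Psph overlap Cct6a in the same way. The strand setting of the quantification is not given in the sources used here, so the values of both are uncertain to that extent. Shmt2, Pck2 and Cth passed in neither knockout, with changes from 0.03 to 0.15 for Drosha and from 0.10 to 0.60 for Dicer1. With quantile normalisation Shmt2 was called lower in the Drosha knockout (-0.14, adjusted p = 0.0277).

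Of the 38 genes, the 1 with the largest tested rise was a transporter in each knockout, Slc7a1 for Drosha and Slc7a11 for Dicer1. Regulators came next, Sesn2 in the former (0.74 ± 0.06) and Trib3 in the latter (1.61 ± 0.22). Slc7a1, which imports arginine, lysine and ornithine, rose from 4.01, 3.99 and 3.74 TPM to 8.19, 8.09 and 9.66 TPM in the Drosha knockout (0.97 ± 0.09, adjusted p = 1.99e-04). It rose from 25.1 and 22.5 TPM to 62.5 and 59.3 TPM in the Dicer1 knockout (1.32 ± 0.11, adjusted p = 0.00425). Each knockout library was far above its controls. Slc7a11, the cystine importer of the cystine and glutamate exchanger, went from 7.39 and 8.41 TPM to 54.8 and 48.9 TPM in the Dicer1 knockout (2.57 ± 0.14, adjusted p = 0.00174), the largest change among the members. In batch 2 it was near the limit of detection, at 0.196, 0.0863 and 0.167 TPM in the controls and 0.403, 0.324 and 0.241 TPM in the Drosha knockout. It did not enter the main test there because it failed the filter of 1 TPM in at least 3 libraries. With no filter on low TPM it was not called in the Drosha knockout (0.20 ± 0.07, limma, adjusted p = 0.109).

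Slc3a2, the shared heavy chain of Slc7a11 and Slc7a5, rose in both. It went from 145, 135 and 140.1 TPM to 170.5, 174 and 180.1 TPM in the Drosha knockout (0.32 ± 0.04, adjusted p = 6.00e-04) and from 268 and 343 TPM to 547 and 533 TPM in the Dicer1 knockout (0.83 ± 0.13, adjusted p = 0.0113). Its partner light chain Slc7a5, which carries large neutral amino acids, passed in neither (0.14 ± 0.05, adjusted p = 0.0692, and 0.06 ± 0.09, adjusted p = 0.657). Slc38a2, a sodium-coupled carrier of small neutral amino acids, rose from 80.4 and 87.0 TPM to 222 and 211 TPM in the Dicer1 knockout (1.36 ± 0.09, adjusted p = 0.00238). In batch 2 its groups overlapped, at 437, 433 and 459 TPM in the controls and 489, 456 and 502 TPM in the Drosha knockout (0.12 ± 0.04, adjusted p = 0.0585), a difference that passed without knockout replicate 2 (adjusted p = 0.0196) or empty vector replicate 3 (adjusted p = 0.0491).

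Neither transcription factor of the ER branch rose in the Drosha knockout. Xbp1 RNA fell there, from 87.5, 86.7 and 89.1 TPM to 76.7, 79.6 and 78.8 TPM (-0.16 ± 0.03, adjusted p = 0.00588), and stood at 78.7 and 86.8 TPM in the controls and 79.6 and 85.6 TPM in the Dicer1 knockout (-0.00 ± 0.10, adjusted p = 0.988). Atf6 rose in the Dicer1 knockout, from 12.6 and 13.8 TPM to 24.4 and 24.3 TPM (0.84 ± 0.13, adjusted p = 0.0113). In batch 2 Atf6 was 9.05, 9.02 and 9.47 TPM in the controls and 10.3, 9.92 and 10.8 TPM in the Drosha knockout, without overlap and short of the threshold (0.15 ± 0.06, adjusted p = 0.0793).

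Of the 12 ER chaperones and degradation factors, 9 rose in each knockout and 7 of them rose in both. After median-ratio scaling 8 rose in the Drosha and 4 in the Dicer1 knockout, and Dnajc3 alone was called in both. With no filter on low TPM, 8 rose in the Drosha knockout and 2 in the Dicer1 knockout. Those 2, Herpud1 and Manf, were not called in the Drosha knockout. Of all genes, 35.3% rose in the Drosha and 21.5% in the Dicer1 comparison, and the share that rose in both was not counted. Hspa5, the abundant ER chaperone BiP, went from 552, 520.0 and 554 TPM to 665, 648 and 659 TPM in the Drosha knockout (0.28 ± 0.03, adjusted p = 6.26e-04). It went from 721 and 912 TPM to 1194 and 1148 TPM in the Dicer1 knockout (0.53 ± 0.13, adjusted p = 0.0325). Dnajc3, a BiP co-chaperone, gave the largest rise of the group in the Drosha knockout, from 34.1, 35.7 and 36.5 TPM to 48.3, 49.7 and 52.4 TPM (0.49 ± 0.05, adjusted p = 2.30e-04), and rose from 30.6 and 25.3 TPM to 42.2 and 42.7 TPM in the Dicer1 knockout (0.59 ± 0.13, adjusted p = 0.0251). The groups of both genes were separate in both batches. The Dicer1 call of Dnajc3 was lost with quantile normalisation (0.40, adjusted p = 0.0539), without the mean trend (adjusted p = 0.0512) and with no filter on low TPM (adjusted p = 0.0639). Dnajb9, another co-chaperone of BiP, rose from 16.3, 17.8 and 19.1 TPM to 23.8, 24.2 and 27.4 TPM (0.48 ± 0.08, adjusted p = 0.00223) with Drosha knockout. With Dicer1 knockout it rose from 29.6 and 49.8 TPM to 76.9 and 73.9 TPM (0.96 ± 0.24, adjusted p = 0.0352). Its 2 batch 1 controls were far apart, and the second call was lost after median-ratio scaling (0.77, adjusted p = 0.0994). That call was also lost with quantile normalisation (adjusted p = 0.102), without the mean trend (adjusted p = 0.0715) and with no filter on low TPM (adjusted p = 0.114). Edem1, which hands misfolded glycoproteins to degradation, rose from 27.6, 25.7 and 25.8 TPM to 35.5, 34.2 and 38.1 TPM (0.43 ± 0.05, adjusted p = 7.66e-04) with Drosha knockout. With Dicer1 knockout Edem1 rose from 19.7 and 16.6 TPM to 29.0 and 26.1 TPM (0.58 ± 0.14, adjusted p = 0.0334, and 0.0607 without empty vector replicate 2 of batch 1). After median-ratio scaling Edem1 was at 0.40 in the Dicer1 knockout (adjusted p = 0.0641). Its Dicer1 call was also lost with quantile normalisation (adjusted p = 0.0642), without the mean trend (adjusted p = 0.0539) and with no filter on low TPM (adjusted p = 0.0768).

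The other shared rises were of Hsp90b1, the ER form of HSP90 (0.32 ± 0.03 and 0.39 ± 0.08), Creld2, an ER redox protein (0.41 ± 0.04 and 0.60 ± 0.14), and Sdf2l1, a partner of BiP (0.41 ± 0.10 and 0.74 ± 0.16). After median-ratio scaling the Dicer1 knockout calls of Hspa5, Hsp90b1 and Creld2 were lost (adjusted p = 0.179, 0.182 and 0.0598), and that of Creld2 also without empty vector replicate 2 (adjusted p = 0.0562). That scaling also ended the call of Sdf2l1 in the Drosha knockout (adjusted p = 0.0653). Without the mean trend, and also with no filter on low TPM, the Dicer1 calls of Hspa5, Hsp90b1 and Creld2 were lost too. Of the 4032 annotated exon bases of Hsp90b1, 415 overlap a transcribed pseudogene on the opposite strand. Pdia6, a disulfide isomerase, rose in the Drosha knockout from 277, 286 and 277 TPM to 365, 361 and 366 TPM (0.38 ± 0.03, adjusted p = 6.91e-05), as did Calr, a lectin chaperone, from 1023, 1031 and 1060 TPM to 1241, 1286 and 1231 TPM (0.27 ± 0.03, adjusted p = 4.39e-04). With Dicer1 knockout Pdia6 and Calr missed the threshold (0.42 ± 0.12, adjusted p = 0.0542, and 0.30 ± 0.13, adjusted p = 0.131) and passed it without empty vector replicate 1 (0.57, adjusted p = 0.0249, and 0.44, adjusted p = 0.0486). A named pseudogene, Calr-ps, could share reads with Calr, and Phgdh-ps1 with Phgdh.

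Herpud1 and Manf were called in the Dicer1 knockout and not in the Drosha knockout. Herpud1, a scaffold of ER-associated degradation and the ER gene whose promoter held the C/EBP-ATF letters, rose from 63.2 and 55.7 TPM to 103 and 115 TPM (0.87 ± 0.11, adjusted p = 0.00778). In the Drosha comparison its levels overlapped, at 49.4, 50.4 and 52.0 TPM against 48.6, 52.9 and 55 TPM (0.04 ± 0.05, adjusted p = 0.554). Manf, a secreted ER protein of which 166 annotated exon bases overlap an antisense gene, rose from 219 and 185 TPM to 308 and 339 TPM (0.68 ± 0.11, adjusted p = 0.0121). It stood at 215, 180.0 and 190.0 TPM against 218, 218 and 225 TPM in batch 2 (0.18 ± 0.06, adjusted p = 0.0509, and 0.00479 without empty vector replicate 1). Pdia4, a disulfide isomerase, passed in neither (0.09 ± 0.04 and 0.36 ± 0.14), and passed in the Dicer1 knockout without empty vector replicate 1 (0.56, adjusted p = 0.0192).

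Set side by side, the ER chaperones had a higher median change than the amino acid genes in the Drosha knockout, while in the Dicer1 knockout the medians of the groups lay close together. Whether this order differed between the knockouts was not tested. In the Drosha knockout 6 of 13 tested amino acid enzymes and transporters rose, with a median log2 change of 0.15, against 9 of 12 ER chaperones, with a median of 0.35. Of all genes 35.3% rose, and relative to their median these medians were 0.02 and 0.22. After median-ratio scaling 5 of the amino acid genes and 8 of the chaperones rose. In the 3 Drosha knockout libraries the median change from the control mean was 0.14, 0.22 and 0.19 for the amino acid genes and 0.34, 0.34 and 0.38 for the ER chaperones, so the chaperones were higher in each. In the Dicer1 knockout 8 of 14 amino acid genes rose, with a median of 0.63 and a range from 0.06 to 2.57, against 9 of 12 ER chaperones, with a median of 0.59 and a range from 0.30 to 0.96, where 21.5% of all genes rose. After median-ratio scaling all 8 of those amino acid calls held, and 4 of the 9 chaperone calls did (Herpud1, Sdf2l1, Dnajc3 and Manf). Per library, the Dicer1 knockout gave medians of 0.66 and 0.65 for the amino acid genes and 0.57 and 0.55 for the chaperones. These medians differed by less than the spread of the chaperone median between the empty vector libraries of that batch, 0.13 and -0.13. Medians of 10 regulators were 0.31, 0.27 and 0.22 in the Drosha knockout libraries and 0.64 and 0.54 in the Dicer1 knockout libraries, with -0.20 and 0.20 in the batch 1 controls.

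**Figure D4:**
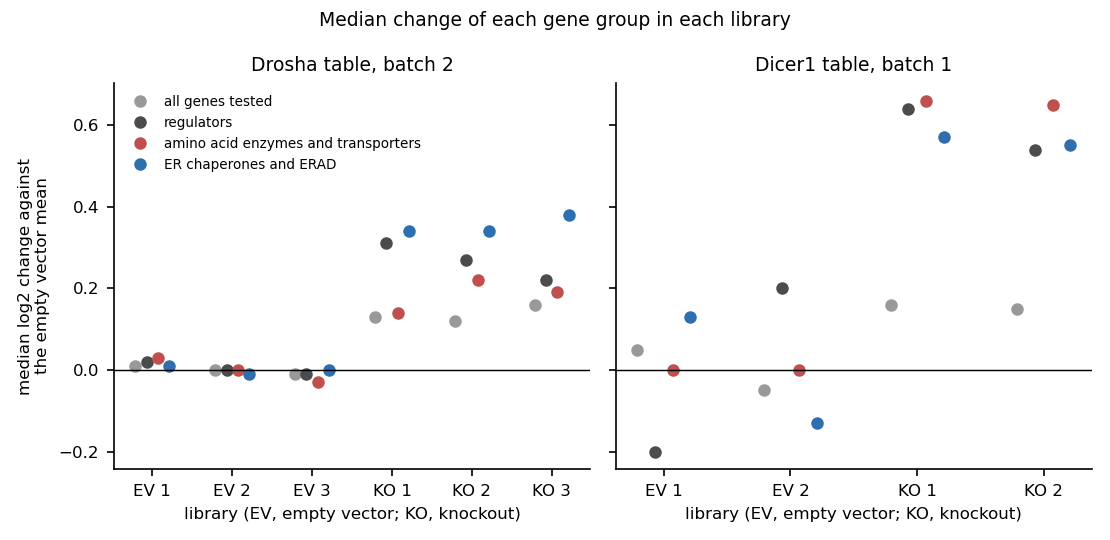
Median log2 change of each gene group in each library against the mean of the empty vector libraries of its table, for all genes tested, 10 regulators, the amino acid enzymes and transporters (13 genes in the Drosha table, 14 in the Dicer1 table) and 12 ER chaperones. ER chaperones lie above the amino acid genes in all 3 Drosha knockout libraries, at 0.34 to 0.38 against 0.14 to 0.22, and within 0.13 of them in both Dicer1 knockout libraries, the distance of the chaperone median of each batch 1 control from 0.

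The change in the Drosha knockout was then compared directly with that in the Dicer1 knockout, in 1 limma fit of all 10 libraries on the 11146 genes tested in both tables. The tables were normalised separately, each change is taken within its own batch, and the knocked-out gene and the batch cannot be told apart in the difference. Of 37 members tested, 11 had a lower change in the Drosha knockout and 0 a higher one (limma, with 0 higher at an unadjusted p under 0.05), where 18.1% of all genes were lower and 17.4% higher by the same rule. Without empty vector replicate 1 of batch 1, 14 members were lower and 3 higher, the latter being Cebpg, Nupr1 and Ddit4. The 3 regulators among the 11 were Trib3 (-1.41 ± 0.27, adjusted p = 0.00276), Atf4 (-0.83 ± 0.09, adjusted p = 1.67e-04) and Chac1 (-0.57 ± 0.19, adjusted p = 0.0409). The 5 amino acid genes were Aldh1l2 (-1.28 ± 0.19, adjusted p = 7.42e-04), Slc38a2 (-1.24 ± 0.08, adjusted p = 9.59e-06), Slc3a2 (-0.51 ± 0.12), Phgdh (-0.40 ± 0.12) and Asns (-0.32 ± 0.10). Atf6 (-0.68 ± 0.11, adjusted p = 0.00136) and the ER factors Herpud1 (-0.82 ± 0.11, adjusted p = 4.10e-04) and Manf (-0.50 ± 0.12, adjusted p = 0.0109) completed them. Chac1, at 1.60 to 3.34 TPM in batch 2, lost its call at pseudocounts of 0.1 (-0.45, adjusted p = 0.169) and 0.5 (adjusted p = 0.086). It was also lost with no filter on low TPM (adjusted p = 0.0738), after median-ratio scaling (adjusted p = 0.0782) and after quantile normalisation (adjusted p = 0.083). Calls of Chac1, Asns and Phgdh were lost with single libraries left out, at least 1 from each batch and 4 to 7 of the 10 in all (adjusted p from 0.0608 to 0.155).

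The other 10 ER chaperones showed no called difference, from -0.48 to -0.03. For Hspa5 it was -0.25 ± 0.12 (adjusted p = 0.126) and for Dnajb9 -0.48 ± 0.24 (adjusted p = 0.157), and both passed without empty vector replicate 2 of batch 1 (-0.42, adjusted p = 7.83e-04, and -0.84, adjusted p = 8.58e-04). Sdf2l1 passed without empty vector replicate 1 of that batch (-0.50). Hspa5 was also called with quantile normalisation (-0.33, limma, adjusted p = 0.0208), and Pdia4 and Creld2 passed in at least 1 alternative. Of the genes called in the Drosha knockout, Sesn2 (0.02 ± 0.10, adjusted p = 0.912) and Ddit4 (0.03 ± 0.18, adjusted p = 0.907) gave differences near 0, although Ddit4 passed without empty vector replicate 1 of batch 1 (0.30, adjusted p = 0.0329). Xbp1 (-0.16 ± 0.08, adjusted p = 0.159), Ddit3 (-0.17 ± 0.14, adjusted p = 0.373), Mthfd2 (-0.29 ± 0.14, adjusted p = 0.13) and Slc7a1 (-0.35 ± 0.14, adjusted p = 0.0694) did not pass. Xbp1 did so without empty vector replicate 2 of batch 1 (-0.23, adjusted p = 0.0287), and Slc7a1 without Drosha knockout replicate 3 (-0.43, adjusted p = 0.0287) or empty vector replicate 1 of batch 1 (-0.43, adjusted p = 0.0375).

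**Figure D5:**
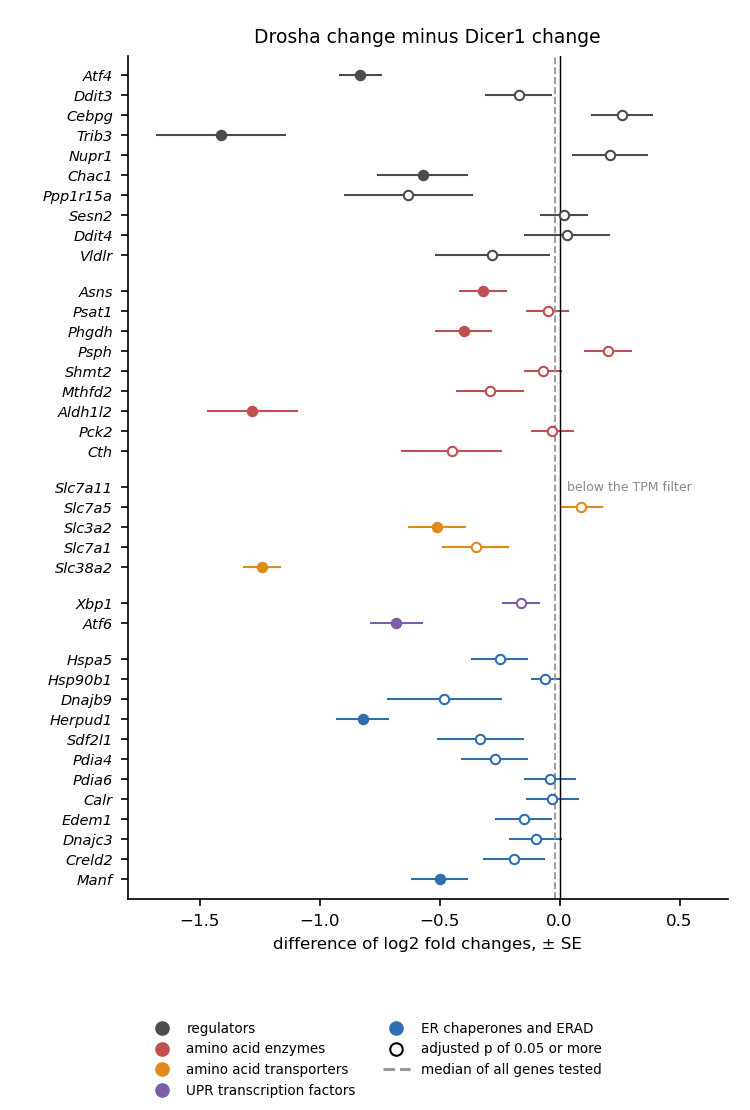
Difference between the log2 fold changes (Drosha minus Dicer1) with its standard error for the 37 members tested in both tables, with filled points at an adjusted p under 0.05 and a dashed line at the median of all genes. The 11 filled points all lie below 0, from -0.32 for Asns to -1.41 for Trib3, and 2 of the 12 ER chaperones are among them.

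Control levels of several members differed between the batches before any knockout. Empty vector libraries of batch 2 and of batch 1 held 32.5 to 36.0 TPM and 184 to 186 TPM of Asns, and 2.79 to 3.56 TPM and 44.5 to 69.0 TPM of Trib3. For Slc7a11 they held 0.0863 to 0.196 TPM and 7.39 to 8.41 TPM. Atf4 was at 163 to 166 TPM and 345 to 407 TPM, and Chac1 at 1.60 to 2.11 TPM and 17.4 to 19.8 TPM. Slc38a2 took the opposite order, with 433 to 459 TPM in batch 2 and 80.4 to 87.0 TPM in batch 1. Among the ER genes, Pdia4 did so too, at 343 to 349.6 TPM and 104 to 138 TPM. So did Pdia6, Calr, Sdf2l1, Edem1 and Dnajc3, with Calr at 1023 to 1060 TPM and 664 to 811 TPM. Hspa5 was higher in batch 1, at 520.0 to 554 TPM and 721 to 912 TPM, as were Hsp90b1, Dnajb9 and Herpud1. Manf overlapped, and so did Creld2, at 41.5 to 44.4 TPM and 43.7 to 54.3 TPM. No test was made of levels across the 2 tables, and the source of these differences cannot be told apart from the batch.

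Other genes of the same pathways were read from 4 further lists. Of 16 sensors and eIF2 pathway genes, 8 rose in the Drosha knockout and 4 in the Dicer1 knockout, and 0 fell in either by limma or at an unadjusted p under 0.05, where 35.3% and 21.5% of all genes rose. After median-ratio scaling 4 rose in the Drosha knockout (Ern1, Atf6b, Eif2b2 and Ppp1r15b). That scaling left 1 higher (Ern1) and 1 lower (Eif2b1, -0.38, adjusted p = 0.0405) in the Dicer1 knockout. Ern1, the ER sensor that splices Xbp1, rose in both, from 5.47, 5.52 and 5.89 TPM to 8.53, 7.82 and 8.82 TPM (0.50 ± 0.07) and from 20.1 and 23.5 TPM to 48.7 and 46.3 TPM (1.09 ± 0.12). Atf6b, a relative of Atf6, rose in the Drosha knockout by 0.59 ± 0.04, as did the eIF2B subunit gene Eif2b2 by 0.66 ± 0.11, and Mbtps2, a protease that cleaves ATF6, rose in the Dicer1 knockout by 0.64 ± 0.17, a call lost after median-ratio scaling (adjusted p = 0.073). Of the 4 eIF2 kinase genes, Eif2ak1 (HRI) rose in both (0.23, adjusted p = 0.0109, and 0.46, adjusted p = 0.0445) and Eif2ak2 (PKR) in the Drosha knockout (0.23, adjusted p = 0.00992). None of these 3 calls held after median-ratio scaling (adjusted p = 0.192, 0.133 and 0.183). Eif2ak3 (PERK) and Eif2ak4 (GCN2) passed in neither comparison, with changes from 0.09 to 0.28.

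Cytosolic tRNA synthetases, many of them ATF4 targets, were called higher more often than lower. Of 20 tested, 13 rose and 1 fell in the Drosha knockout, and 12 rose and 1 fell in the Dicer1 knockout, with medians of 0.23 and 0.40, where 35.3% and 21.5% of all genes rose. After median-ratio scaling 9 rose and 4 fell in the former and 5 rose and 2 fell in the latter. Iars1, for isoleucine, rose most in both. It went from 26.0, 26.1 and 26.5 TPM to 39.4, 39.3 and 44.2 TPM (0.62 ± 0.05, adjusted p = 1.55e-04) with Drosha knockout. With Dicer1 knockout it went from 60.5 and 56.9 TPM to 123 and 127 TPM (1.08 ± 0.09, adjusted p = 0.00406). Tars1, for threonine, rose by 0.47 ± 0.04 in the Drosha knockout and by 0.43 ± 0.08 in the Dicer1 knockout, the latter call lost after median-ratio scaling (adjusted p = 0.117). Gars1, for glycine, rose by 0.31 ± 0.05 in the Drosha knockout and by 0.77 ± 0.08 in the Dicer1 knockout.

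Of 15 further ATF4 targets, 13 were tested in each table, and 4 rose and 3 fell in the Drosha knockout against 7 and 3 in the Dicer1 knockout. The shares that rose stood beside 35.3% and 21.5% of all genes, and after median-ratio scaling 1 rose and 4 fell in the former and 7 rose and 3 fell in the latter. Atf3, a stress-induced transcription factor, was near the filter in batch 2, at 0.71, 0.929 and 0.745 TPM and then 1.56, 1.34 and 2.32 TPM (0.59 ± 0.18, adjusted p = 0.0318), a call lost after median-ratio scaling (0.52, adjusted p = 0.0568) and quantile normalisation (0.48, adjusted p = 0.0684). It fell in the Dicer1 knockout from 50 and 122 TPM to 19.1 and 16.2 TPM (-2.09 ± 0.40, adjusted p = 0.018). Gdf15, a secreted stress hormone, rose from 2.53, 2.26 and 2.75 TPM to 4.89, 5.57 and 5.74 TPM in the Drosha knockout (0.87 ± 0.10, adjusted p = 6.07e-04). Its rise in the Dicer1 knockout was 0.82 ± 0.12 (adjusted p = 0.00936). The glycine transporter gene Slc6a9 rose in the Dicer1 knockout (1.39 ± 0.11, adjusted p = 0.00406). Of 20 other ER folding and degradation genes, 15 of 19 tested rose and 1 fell in the Drosha knockout, and 12 of 20 rose and 2 fell in the Dicer1 knockout, where 35.3% and 21.5% of all genes rose. After median-ratio scaling 9 rose and 3 fell (P4hb, Sec61a1 and Sec61b) in the former, and 6 rose and 2 fell in the latter. Ero1a, the oxidase that drives disulfide formation, rose from 19.6, 17.2 and 18.0 TPM to 33.0, 33.1 and 37.8 TPM (0.89 ± 0.07, adjusted p = 1.12e-04) with Drosha knockout. It rose from 366 and 566 TPM to 1397 and 1271 TPM (1.55 ± 0.21, adjusted p = 0.00854) with Dicer1 knockout. Its relative Ero1b was also higher by 1.55 ± 0.17 in the Dicer1 knockout, and Wfs1, an ER membrane protein, rose in the Drosha knockout by 0.66 ± 0.09.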

How the data were processed

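Poly(A) RNA was captured with beads and sequenced, per the labels' protocols, which name more than one extraction kit and several sequencers without saying which library used which. For each knockout the authors deposited a table of TPM per gene. The submitters' processing notes name kallisto 0.48.0. No source used here gives its index, annotation or genome build. Library depth is unknown. The deposited Dicer1 table also holds 3 columns of group means and a ratio, which were not used.

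Rows sharing a symbol were summed. Genes entered at a TPM of at least 1 in at least 3 of 6 (Drosha) or 2 of 4 (Dicer1) libraries. Values were taken as log2(TPM + 1), which understates changes of low genes, and tested two-sided with limma 3.58.1 in R 4.3.3 with a mean trend. P-values were Benjamini-Hochberg adjusted over all genes tested, called under 0.05. The difference fit used 4 group means. The script was tested on simulated data.

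The members and gene lists were chosen with earlier results of these data known. From each role, the up to 3 largest called changes per comparison were described in full (2 from each further list, 5 for the difference), with Atf4, Ddit3, Xbp1, Atf6, Asns and Hspa5 always included. Other members were added after their values were seen. Promoter letters came from RefSeq windows. Exon overlaps came from GENCODE annotation of the same build. Alternatives were the pseudocount, the filter, scaling, the trend, the replicate block and leaving out each library.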

Additional observations from a re-analysis of the deposited data

Results flagged for a closer look

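For 11 members, the change in the Drosha knockout differed from the change in the Dicer1 knockout in a direct test of that difference (limma over 10 libraries). Each difference was negative, that is, lower in the Drosha knockout than in the Dicer1 knockout. It was -1.41 for Trib3, -1.28 for Aldh1l2, -1.24 for Slc38a2, -0.83 for Atf4, -0.82 for Herpud1, -0.68 for Atf6, -0.57 for Chac1, -0.51 for Slc3a2, -0.50 for Manf, -0.40 for Phgdh and -0.32 for Asns, on the log2 scale. The call of Chac1 was lost at other pseudocounts and scalings, and those of Chac1, Asns and Phgdh with single libraries left out. The batches differ as the knockouts do, and the part of the batch in these differences cannot be told apart from that of the knocked-out gene. No group held more than 3 libraries, so single libraries were not checked for distance from their group.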

How the results depend on the processing

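Depth is unknown for these TPM values, and 2 libraries per group limit the Dicer1 comparison. In the Drosha knockout the members called higher ranged from 14 to 22 over the alternatives and those called lower from 2 to 4 (4 with quantile normalisation). In the Dicer1 knockout 14 members and 1847 genes passed with no filter on low TPM, which tests more genes. Leaving out single libraries gave 0 to 26 members higher, 0 to 1 lower and 0 to 3988 genes there, and 0 to 3 members higher for the difference. The median change of the amino acid genes in the Drosha knockout was 0.03 after median-ratio scaling, 0.06 after quantile normalisation and 0.15 to 0.19 with single libraries left out. That of the ER chaperones was 0.21, 0.24 and 0.33 to 0.36. For Dicer1 the amino acid genes had 0.45 and 0.54 after these scalings, 0.66 and 0.64 at pseudocounts of 0.1 and 0.5, and 0.57 to 0.67 with single libraries left out, and the ER chaperones 0.41, 0.41 and 0.46 to 0.64.

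Sign changes occurred in members not called in the comparison. Of these, Shmt2 was called lower in the Drosha knockout with quantile normalisation (limma, adjusted p = 0.0277). In the Drosha knockout, median-ratio scaling and quantile normalisation gave -0.07 and -0.09 for Ddit3, -0.04 and -0.07 for Psat1, -0.12 and -0.14 for Shmt2, -0.04 and -0.08 for Pck2, -0.10 and -0.12 for Herpud1 and -0.06 and -0.04 for Pdia4. Median-ratio scaling gave -0.02 for Slc38a2, and quantile normalisation -0.03 for Vldlr, -0.01 for Cth and -0.03 for Slc7a5. For the Dicer1 knockout the pair gave -0.18 and -0.20 for Cebpg, -0.02 and -0.03 for Psph, -0.09 and -0.04 for Shmt2, -0.05 and -0.06 for Pck2 and -0.12 and -0.13 for Slc7a5, and median-ratio scaling -0.03 for Psat1. With single libraries left out, Vldlr ranged from -0.00 to 0.19 in the Drosha knockout, Cebpg from -0.12 to 0.13 and Xbp1 from -0.07 to 0.07 in the Dicer1 knockout, and the differences of Sesn2 from -0.03 to 0.06, of Ddit4 from -0.24 to 0.30 and of Dnajc3 from -0.23 to 0.03. The cause was not tested beyond the scaling itself.

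Same-numbered libraries of knockout and control did not visibly vary together (correlations of deviations of -0.021, 0.02 and -0.007 for Drosha and -0.092 for Dicer1). With 2 libraries per group the Dicer1 correlations differ only in sign. Whether same-numbered libraries were handled as pairs is not known. With the replicate number as a block, 5188 and 3045 genes were called, 21 members higher and 2 lower in the Drosha knockout, 22 and 0 in the Dicer1 knockout, and 8 lower for the difference. Knockout and control hold the same replicate numbers, so the block leaves every fold change and list median unchanged by design. The block exchanged calls: in the Drosha knockout Phgdh was lost (adjusted p = 0.0542) and Slc38a2 gained (0.0295), in the Dicer1 knockout Hsp90b1 was lost (0.0526) and Ppp1r15a gained (0.0481), and the differences of Chac1 (0.057), Asns (0.0579) and Phgdh (0.0549) were lost.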
